A study of Mus musculus with 8 samples.

Results

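Levels of 10 genes of somite segmentation and of Notch signalling in the presomitic mesoderm were examined in 8 mouse embryos at E8.5. The genes are Hes7, Lfng, Dll1, Dll3, Notch1, Tbx6, Msgn1, Mesp2, Ripply2 and Meox1. They were taken by name, through the RefSeq transcript that each array probe is listed under, as 10 of 20660 genes matched on the array, and 13 of its 55681 probes measured them, with 2 probes each for Dll3, Notch1 and Tbx6 and a single probe for each of the other 7 genes. Each embryo was wild type, had a wild-type mother and was hybridised to its own Agilent 8x60K array. In 4 embryos, the hypo/wt group, the father was heterozygous for the hypomorphic allele Eedl7Rn5-1989SB (Eed hypo/wt). In the other 4, the wt/wt group, the father was wild type (Eed wt/wt). Both groups were on a C57bl6/129 background and held 2 females and 2 males, and embryos are named by the father and the replicate number of the label. Eed encodes a core subunit of Polycomb Repressive Complex 2, which deposits the repressive histone mark H3K27me3, and the comparison asks whether the genotype of a father leaves a trace in embryos that did not inherit the allele. The allele lowers EED function without removing it, the mutant line also carried an Oct4GFP transgene, and the labels do not say how many fathers or litters the embryos came from. Embryos of a group may therefore share a father or a litter, while the main tests treated each embryo as independent.

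Somites form in pairs from the presomitic mesoderm, at a pace set by oscillating genes of the Notch, Wnt and FGF pathways. Hes7 is a transcriptional repressor that switches off its own gene and Lfng, and so drives the oscillation in the mouse. Lfng encodes a glycosyltransferase that modifies Notch receptors, Dll1 and Dll3 are Delta-like ligands, and Notch1 is the receptor. Tbx6 and Msgn1 are transcription factors of the presomitic mesoderm, Mesp2 marks where the next boundary will form, Ripply2 shuts Mesp2 off again, and Meox1 is a homeobox gene of the formed somite.

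For the regulatory sequence of these genes, RefSeq promoter windows on build GRCm38.p6 were read. Each window runs from 250 bases before a transcription start to 50 bases after it, and 9 of the 10 genes matched with 10 windows, Dll1 having 2 and Meox1 none. The 250 bases before the start are shown for the 3 genes with a match to the core of the site bound by RBPJ, the nuclear partner of Notch, and for Mesp2, whose level varied most between embryos. Capitals mark matches to the RBPJ core (TGGGAA), the N-box bound by Hes proteins (CACNAG) and the TCF/LEF core of Wnt signalling (CTTTGA), on either strand. The windows lie at chr11:69120203-69120452 on the plus strand for Hes7, chr5:140607091-140607340 on the plus strand for Lfng, chr12:11208949-11209198 on the minus strand for Msgn1 and chr7:79810477-79810726 on the plus strand for Mesp2. Each is written 5′ to 3′ along its gene.
Hes7: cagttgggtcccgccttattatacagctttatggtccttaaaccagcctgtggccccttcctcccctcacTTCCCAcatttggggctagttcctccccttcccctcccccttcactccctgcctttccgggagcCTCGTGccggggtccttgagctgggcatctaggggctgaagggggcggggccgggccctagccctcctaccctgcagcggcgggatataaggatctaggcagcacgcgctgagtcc
Lfng: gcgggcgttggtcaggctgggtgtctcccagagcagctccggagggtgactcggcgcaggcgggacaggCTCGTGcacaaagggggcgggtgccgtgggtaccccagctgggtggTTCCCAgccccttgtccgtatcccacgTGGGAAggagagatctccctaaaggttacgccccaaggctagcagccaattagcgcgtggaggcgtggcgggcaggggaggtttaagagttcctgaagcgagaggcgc
Msgn1: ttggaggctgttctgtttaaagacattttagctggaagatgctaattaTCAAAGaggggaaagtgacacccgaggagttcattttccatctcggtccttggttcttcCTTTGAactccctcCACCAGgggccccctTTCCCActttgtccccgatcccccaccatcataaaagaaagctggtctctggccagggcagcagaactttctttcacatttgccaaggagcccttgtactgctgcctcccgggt
Mesp2: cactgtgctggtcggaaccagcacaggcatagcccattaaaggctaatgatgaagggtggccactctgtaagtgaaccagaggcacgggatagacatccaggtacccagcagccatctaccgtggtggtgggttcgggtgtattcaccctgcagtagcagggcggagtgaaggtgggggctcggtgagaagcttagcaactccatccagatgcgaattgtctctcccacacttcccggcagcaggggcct

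The RBPJ core was found in the windows of Hes7, Lfng and Msgn1, that is 3 of 9 genes, against 25.6% of all 32851 windows of this length. Lfng held it at 2 places, starting 135 and 108 bases before the start, and the latter shares 2 bases with an E-box (CANNTG, bound by basic helix-loop-helix proteins). The N-box was found for 6 of 9 genes (Hes7, Lfng, Dll1, Notch1, Tbx6 and Msgn1), against 42.5% of all windows, and the E-box for 7 of 9, against 72.3%. The TCF/LEF core was found for Msgn1 alone, at 2 places, against 16.0% of windows. The T-box core (AGGTGT), the motif of the family of Tbx6, was found for Mesp2 alone, 30 bases after the start and so outside the stretch shown, against 13.7% of windows. A match is a run of letters and not a bound site, and each motif was searched on both strands.

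**Figure D1:**
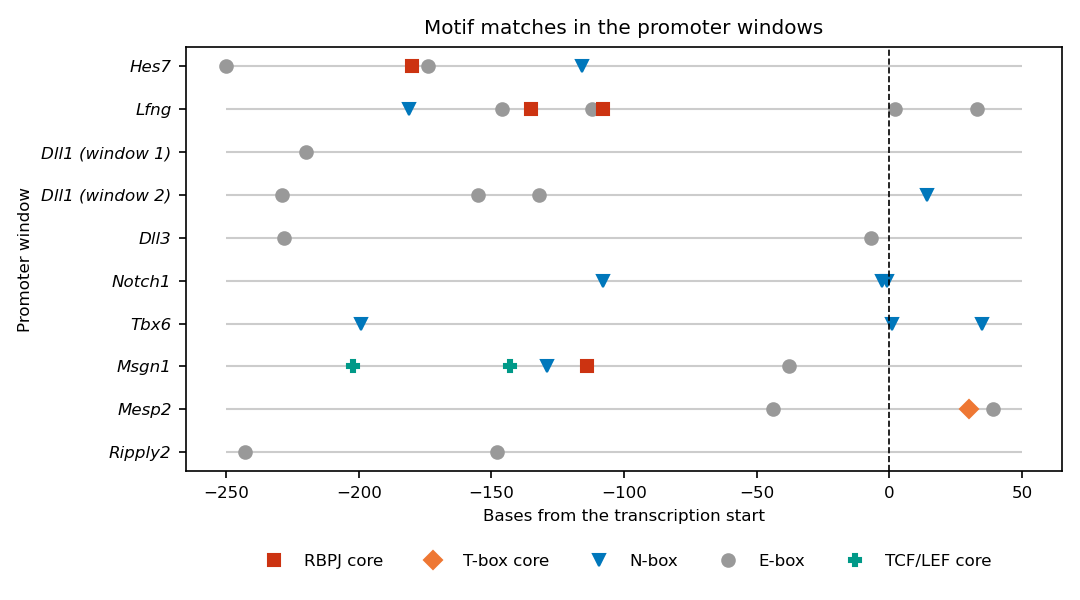
Positions of the matches to 5 motifs in the promoter windows of 9 genes, with the distance of the match's first base from the transcription start on the x axis and a row for each window. The RBPJ core lies before the start in Hes7, Lfng and Msgn1, and the T-box core 30 bases after the start of Mesp2.

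Levels are given on the log2 scale relative to the 75th percentile of each array, so that 0 means a signal equal to that percentile. Levels of different probes are not compared with each other, since probes differ in brightness. All 13 probes passed the filter on dim probes, none was saturated, and 12 were well above background on all 8 arrays; the other, the dimmer of the Notch1 probes, was so on 4 arrays of the wt/wt group and 2 of the hypo/wt group. RNA came from whole embryos, so fewer cells of a type and less RNA per cell cannot be told apart. Each father group was hybridised on a slide of its own, so slide and father genotype cannot be told apart either. The replicates are separate embryos.

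Between 29203 and 39530 probes were well above background on an array, and the highest counts, 39530 and 38878, belonged to wild-type father replicate 1 and heterozygous father replicate 3. The local background was 50 to 51 intensity units on the arrays of the wt/wt group. In the hypo/wt group it was 30 to 32 for replicates 1 to 3 and 133 for replicate 4, so it also differed between the slides. Embryonic tissues were present by their markers: all 5 cardiac and all 5 neural markers listed were tested, each well above background on at least 7 arrays. All 7 erythroid and all 7 yolk sac endoderm markers, Hbb-bh1 and Afp among them, were so on all 8 arrays, so the samples held blood and extraembryonic endoderm RNA. The skeletal muscle genes Myf5, Myog and Myod1 and the early streak gene Mixl1 were above background on no array. The other gastrulation stage markers listed, Nanog, Eomes, Gsc, Fgf5 and Lhx1, were well above background on all 8 arrays. Of the decidua and trophoblast markers, Tpbpa was above background on no array, while the prolactin family gene Prl8a2 measured 2.19 ± 0.570 (SD, n = 4) in the wt/wt group and -0.26 ± 1.58 (SD, n = 4) in the hypo/wt group, without overlap. Its log2 difference was -2.45 (limma, unadjusted p = 0.0127, adjusted p = 0.9996), and 3.23% of all tested probes also separated the groups.

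The segmentation genes differed little between the father groups. By limma, 0 of the 13 probes were called at an adjusted p under 0.01 and at least 2-fold, and 0 of all 33093 tested probes (0%) were. At an unadjusted p under 0.05 stood 2 of the 10 genes, Lfng and Dll1, both lower in the hypo/wt group, beside 4.4% of all tested probes. In 0 of the 13 probes did the groups separate without overlap, beside 3.23% of all tested probes. Over the brightest probe of each gene, 4 genes were higher and 6 lower in the hypo/wt group, beside 50.7% of all tested probes higher. The median log2 difference was -0.04, beside 0.003 over all tested probes. The 95% interval of the difference lay within 2-fold either way for 8 of the 10 genes, all but Notch1 and Mesp2. The adjusted p from limma was 1.00 for each of the 13 probes.

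**Figure D2:**
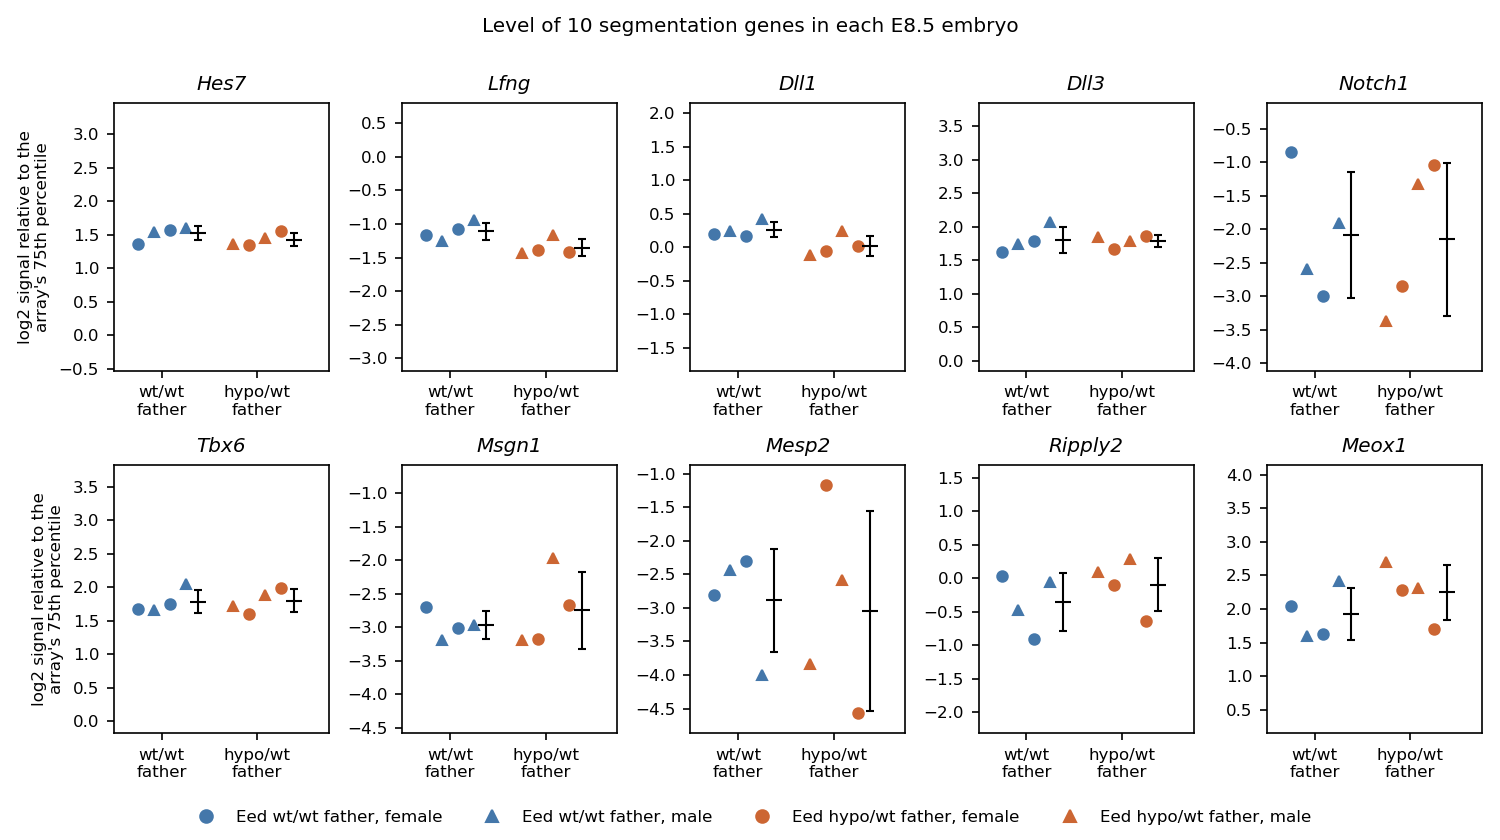
Level of each of the 10 genes in each embryo, by its brightest probe, as log2 signal relative to the 75th percentile of the array (y axis, spanning 4 log2 units in every panel), for the wt/wt group (blue) and Eed hypo/wt fathers (orange), with circles for females, triangles for males and bars for mean ± SD (n = 4). The points of Hes7, Lfng, Dll1, Dll3 and Tbx6 lie close together, those of Mesp2 and Notch1 are spread, and the groups overlap in every panel.

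Of the ligands, Dll1 measured 0.20, 0.25, 0.18 and 0.42 in wt/wt group replicates 1 to 4 and -0.11, -0.05, 0.24 and 0.02 in hypo/wt group replicates 1 to 4. In the latter group 3 embryos lay below every embryo of the former, while heterozygous father replicate 3 lay among them. The log2 difference was -0.24 (SE 0.0999), or 0.847-fold with a 95% interval of 0.720 to 0.995 (limma, unadjusted p = 0.0450, adjusted p = 1.00). The Dll1 probe was spotted 10 times on each array, and the SD between those spots was 0.033 to 0.062 on the log2 scale, which covers noise within an array and not labelling or hybridisation. Dll3, the ligand that acts inside the cell that makes it, gave 1.81 ± 0.194 (SD, n = 4) in the wt/wt group and 1.79 ± 0.0886 (SD, n = 4) in the hypo/wt group, a log2 difference of -0.02 (SE 0.109). Its other probe differed by 0.16 (SE 0.102, unadjusted p = 0.150 by limma), more than the pooled SD within father groups (0.138) and less than the SD of the wt/wt group (0.173), and the groups overlapped for both probes. In both Dll3 probes wild-type father replicate 1 was the lowest embryo.

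Lfng, the modifier of the receptor, measured -1.16, -1.25, -1.08 and -0.95 in the wt/wt group and -1.44, -1.39, -1.17 and -1.42 in the hypo/wt group. As with Dll1, heterozygous father replicate 3 was the embryo of its group that reached into the other. The log2 difference was -0.24 (SE 0.096), or 0.844-fold with a 95% interval of 0.723 to 0.986 (limma, unadjusted p = 0.0364, adjusted p = 1.00). Without heterozygous father replicate 3 the differences were -0.31 for Lfng and -0.31 for Dll1, with adjusted p = 0.496 and 0.495 by limma, and without wild-type father replicate 4, the highest embryo for both, they were -0.19 and -0.19. Only without heterozygous father replicate 3 did both genes stay at an unadjusted p under 0.05 when a single embryo was left out; 1 of the 2 did without wild-type father replicate 2, and 0 without any of the other 6. Leaving out wild-type father replicate 1 and heterozygous father replicate 3 together, an alternative chosen after seeing the data, gave -0.32 and -0.33, and both stayed under it. With all 8 embryos, 0 of the 10 genes were under it with the medians of the arrays aligned, without the filter on dim probes, with the replicate block or with a random block for the code of the embryo.

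The receptor gene Notch1 varied widely by its brighter probe, with -0.85, -2.58, -3.00 and -1.90 in the wt/wt group and -3.37, -2.85, -1.32 and -1.05 in the hypo/wt group, a 5.75-fold range. Each group held high and low embryos. The log2 difference was -0.06 (SE 0.664), and its 95% interval ran from 0.327- to 2.81-fold, so it held 2-fold differences in both directions. The dimmer probe differed by -0.04 (SE 0.358) and ranged over 3.24-fold. The levels of the pair of probes had a Pearson r of 0.488 over the 8 embryos, against 0.747 for the pair of Dll3 probes and 0.729 for the pair of Tbx6 probes, given as a description of 8 arrays. The highest embryo was wild-type father replicate 1 by the brighter Notch1 probe and heterozygous father replicate 3 by the dimmer, the embryos with the most probes above background, and their part in this spread was not tested.

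**Figure D3:**
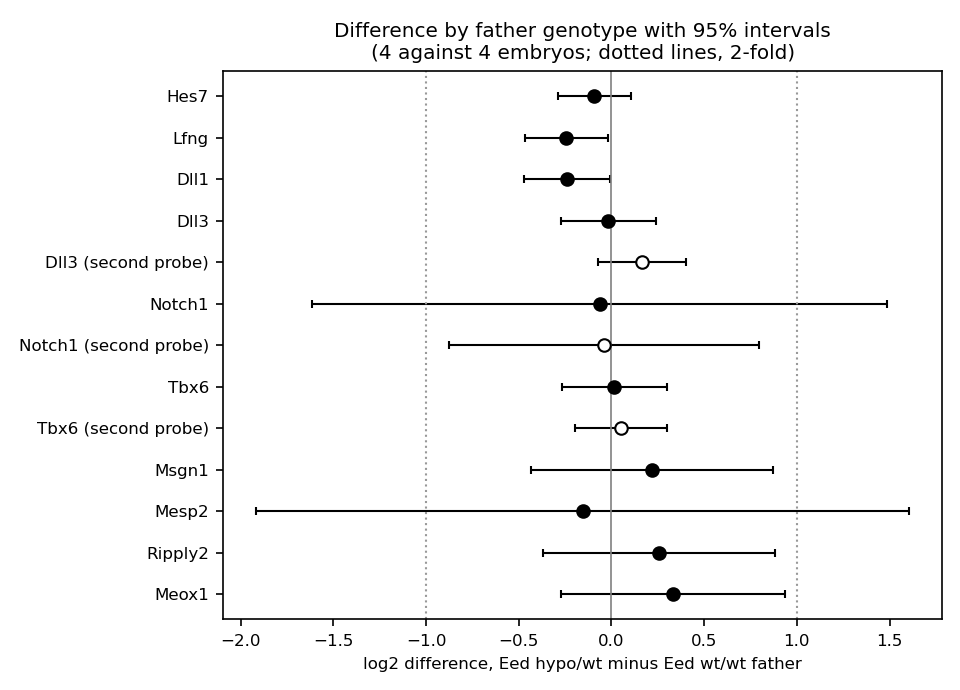
Log2 difference between the father groups, hypo/wt minus wt/wt, (x axis) for each of the 13 probes (y axis), with 95% intervals from limma; filled points are the brightest probe of a gene and open points the other probe. Only the intervals of Lfng and Dll1 leave out 0, and only those of Mesp2 and the brighter Notch1 probe cross both 2-fold lines.

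Among the transcription factors, Hes7 was the steadiest gene. It measured 1.37, 1.54, 1.57 and 1.60 in the wt/wt group and 1.36, 1.34, 1.45 and 1.56 in the hypo/wt group, a 1.19-fold range over all 8 embryos. The log2 difference was -0.09 (SE 0.084), or 0.938-fold with a 95% interval of 0.819 to 1.07. Tbx6 gave 1.79 ± 0.175 (SD, n = 4) and 1.80 ± 0.167 (SD, n = 4), with log2 differences of 0.01 (SE 0.121) and 0.05 (SE 0.106) by its pair of probes, both within the spread between embryos. The interval of the brighter Tbx6 probe ran from 0.831- to 1.23-fold. Under other normalizations the sign of this small difference changed.

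Msgn1, which lies downstream of Wnt signalling in the presomitic mesoderm, measured -2.70, -3.19, -3.00 and -2.97 in the wt/wt group and -3.19, -3.17, -1.96 and -2.66 in the hypo/wt group. A single embryo, heterozygous father replicate 3, stood above the others. The log2 difference was 0.22 (SE 0.279, unadjusted p = 0.458 by limma), and -0.04 without that embryo. The log2 range over the embryos, 1.23, fell to 0.53 without it.

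Mesp2 had the widest range of the 10 genes, 10.5-fold between its highest and its lowest embryo. It measured -2.80, -2.44, -2.30 and -4.00 in the wt/wt group and -3.84, -1.17, -2.59 and -4.56 in the hypo/wt group. The low embryos were wild-type father replicate 4 and heterozygous father replicates 1 and 4, and the highest was heterozygous father replicate 2, so low and high embryos occurred with both kinds of father. The log2 difference was -0.15 (SE 0.754), with a 95% interval of 0.265- to 3.05-fold. The probe was well above background in all 8 embryos, and with normexp background correction and quantile normalization together its log2 range was 2.07 in place of 3.39. The lowest value, -4.56 in heterozygous father replicate 4, came from the array with a local background of 133 intensity units. The median signal of that array was -4.49, and the part of its background in the range was not tested. Mesp1, its neighbour and closest relative, was measured by a probe of its own at -3.12, -2.90, -2.18 and -3.03 in the wt/wt group and -4.11, -3.35, -2.85 and -2.87 in the hypo/wt group. Its lowest embryo was heterozygous father replicate 1 and its highest was wild-type father replicate 3, neither of which was the extreme embryo for Mesp2. The log2 difference of Mesp1 was -0.49 (SE 0.332, unadjusted p = 0.181 by limma).

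Ripply2, the repressor that follows Mesp2, measured 0.04, -0.48, -0.90 and -0.06 in the wt/wt group and 0.09, -0.11, 0.28 and -0.64 in the hypo/wt group. The lowest embryos were wild-type father replicate 3 and heterozygous father replicate 4. Its log2 difference was 0.26 (SE 0.268, unadjusted p = 0.370 by limma). Meox1, of the formed somite, measured 2.04, 1.60, 1.63 and 2.42 in the wt/wt group and 2.70, 2.29, 2.31 and 1.71 in the hypo/wt group. Heterozygous father replicate 4 and wild-type father replicates 2 and 3 were the 3 low embryos for Meox1, and the same 3 were the lowest for Ripply2. The log2 difference of Meox1, 0.33 (SE 0.259, unadjusted p = 0.240 by limma), was the largest of the 10 and lay within the spread between embryos.

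Set side by side, the 10 genes fell on either side of the typical spread. Hes7, Lfng, Dll1, Dll3 and Tbx6 ranged over at most 1.45-fold between the highest and the lowest embryo, and Notch1, Msgn1, Mesp2, Ripply2 and Meox1 over at least 2.16-fold. Among all tested probes the median range was 1.56-fold and 31.3% ranged over more than 2-fold, against 5 of these 10 genes. The pooled SD within father groups was below the median of all tested probes (0.214) for the former 5 genes and above it for the latter 5. That of Hes7 was larger than the SD of 17.6% of all tested probes, and that of Mesp2 larger than the SD of 95.3%. Without wild-type father replicate 1 and heterozygous father replicate 3, 3 genes ranged over more than 2-fold (Notch1, Mesp2 and Meox1), and with the medians of the arrays aligned 9 did.

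**Figure D4:**
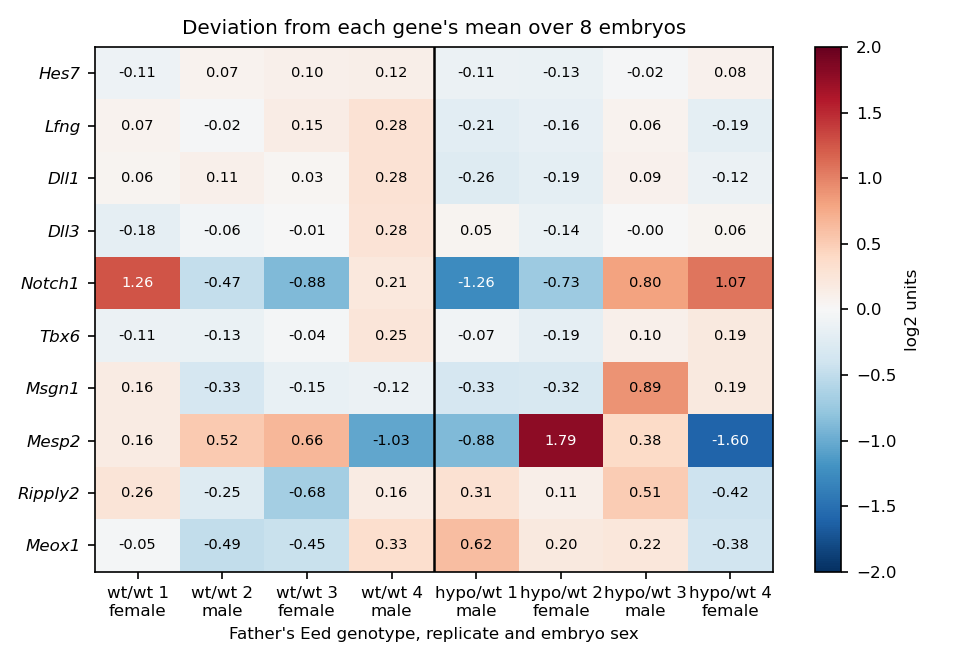
Deviation of each gene (rows, brightest probe) in each embryo (columns) from its mean over the 8 embryos, in log2 units, with the father groups separated by the black line. Mesp2 and Notch1 hold the deepest colours, from -1.60 to 1.79 for Mesp2, and wild-type father replicate 4 is the highest embryo for Hes7, Lfng, Dll1, Dll3 and Tbx6.

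Wild-type father replicate 4 was the highest of the 8 embryos for 5 of the 10 genes, Hes7, Lfng, Dll1, Dll3 and Tbx6. The share of all tested probes at their highest or lowest in this embryo was not computed, neither for these genes nor for the markers below. It was also the highest for the mean deviation of the presomitic Wnt and FGF genes, at 0.19. For the somite genes it stood at 0.17, below only heterozygous father replicate 3 at 0.21. In the same embryo 7 of 7 erythroid markers and 6 of 7 yolk sac endoderm markers were at their lowest, and 3 of 5 neural and 2 of 5 cardiac markers were at their highest. So were Tbx4 and Isl1, the 2 later stage markers that were tested. Both were well above background on all 8 arrays, and Myog, Myod1 and Neurog1 of that list were not tested. The summed level of the erythroid markers, in multiples of the 75th percentile, was 477 to 1086 over the wt/wt group and 748 to 942 over the hypo/wt group, and that of the yolk sac endoderm markers 451 to 638 and 563 to 594, with wild-type father replicate 4 at the lowest value of each. The part of these tissues in the levels of that embryo was not tested. The summed level of the 3 tested decidua and trophoblast markers was 4.98 to 8.38 in the wt/wt group and 0.527 to 2.87 in the hypo/wt group. Of the 3, Prl8a2 alone separated the groups (limma, unadjusted p = 0.0127), beside 3.23% of all tested probes. Prl3d1 differed by -0.91 (limma, unadjusted p = 0.262) with overlap and Prl3b1 by 0.02. The part of this tissue in the differences of Lfng and Dll1 was not tested.

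The 10 genes gave 45 pairs, whose levels were compared over the 8 embryos by Pearson's r, with exact two-sided permutation tests. Of the 45, 0 pairs passed at an adjusted p under 0.05, 5 had an unadjusted p under 0.05, 28 were positive and 17 negative, and the median r was 0.08. The same shares among pairs of other tested probes were not computed, so these counts are not particular to the 10 genes. With the medians of the arrays aligned 11 pairs passed and the median r was 0.41. The strongest was Lfng with Dll1, at r = 0.913 (exact permutation p = 0.00322, adjusted p = 0.0910) and rho = 0.738 (exact permutation p = 0.0458, adjusted p = 0.370). Within the slides r was 0.664 for the wt/wt group and 0.941 for the hypo/wt group, and it was 0.794 without the 2 embryos farthest from the median of Lfng. Dll3 with Tbx6 reached r = 0.837 (exact permutation p = 0.00404, adjusted p = 0.0910) and rho = 0.857 (exact permutation p = 0.0107, adjusted p = 0.370), with 0.960 and 0.736 within the slides and 0.756 without 2 embryos. Ripply2 with Meox1 reached r = 0.823 (exact permutation p = 0.0150, adjusted p = 0.225) and rho = 0.762 (exact permutation p = 0.0368, adjusted p = 0.370), with 0.782 and 0.817 within the slides and 0.713 without 2 embryos. Notch1 with Msgn1 reached r = 0.721 (exact permutation p = 0.0286, adjusted p = 0.321) and rho = 0.738 (exact permutation p = 0.0458, adjusted p = 0.370), with 0.834 and 0.804 within the slides and 0.821 without 2 embryos. Tbx6 and Mesp2 had the only negative r of these 5, r = -0.742 (exact permutation p = 0.0375, adjusted p = 0.338; rho = -0.714, exact permutation p = 0.0576, adjusted p = 0.370), which was -0.377 without wild-type father replicate 4 and heterozygous father replicate 4. The pairs share their arrays, so whatever scales a whole array enters every pair.

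Among 60 tested genes of the 4 related lists, those whose levels most resembled the mean profile of the 10 genes over the 8 embryos were Nkx3-2, Efnb2 and Adam10. Nkx3-2, a homeobox gene of the sclerotome, had r = 0.935 (exact permutation p = 0.000496, adjusted p = 0.0298) and rho = 0.929 (exact permutation p = 0.00223), with 0.925 and 0.972 within the slides. Its r was 0.798 without the 2 embryos farthest from the median of the profile, heterozygous father replicate 3 and wild-type father replicate 1. Efnb2, an ephrin of somite boundaries, had r = 0.860 (exact permutation p = 0.00561, adjusted p = 0.168) and rho = 0.762 (exact permutation p = 0.0368), and Adam10, a protease that cleaves Notch receptors, r = 0.830 (exact permutation p = 0.0103, adjusted p = 0.172) and rho = 0.762 (exact permutation p = 0.0368). Without the same 2 embryos the r of Efnb2 and Adam10 was 0.782 and 0.524. Nkx3-2 was well above background on 6 arrays, and its highest embryos, heterozygous father replicate 3 at -2.46 and wild-type father replicate 1 at -2.80, were the ones with the most probes above background, whose part in this was not tested. The mean profile itself was highest in these 2 embryos, at 0.30 and 0.15. The deviations of the 10 genes were averaged without scaling. Mesp2 (log2 range 3.39) and Notch1 (2.52) therefore weighed more in the profile than steady genes such as Hes7 (0.26).

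The other genes of the pathway showed few differences between the father groups. Of all tested probes, 50.7% were higher in the hypo/wt group and 4.4% had an unadjusted p under 0.05 by limma. Of 21 genes for the rest of the Notch machinery, 20 were tested, 12 were higher and 8 lower in the hypo/wt group, 0 had an unadjusted p under 0.05 and the median log2 difference was 0.05. The largest were Psen2, a subunit of the gamma-secretase that frees the Notch intracellular domain, at 0.23 (SE 0.188), and the ligand Dll4 at 0.23 (SE 0.146). Rbpj, the nuclear partner, differed by -0.01 (SE 0.080). Of 6 other Notch targets, 3 were higher and 3 lower, with a median of 0.06 and 0 at an unadjusted p under 0.05, and the largest differences were -0.25 (SE 0.256) for Hes5 and 0.21 (SE 0.342) for Heyl.

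Of 18 Wnt and FGF genes of the presomitic mesoderm, 6 were higher and 12 lower in the hypo/wt group, beside 50.7% of all tested probes higher. Their median was -0.03, and 0 had an unadjusted p under 0.05, beside 4.4% of all tested probes. Spry2, an FGF feedback inhibitor, differed by 0.39 (SE 0.437) and Pcdh8, a protocadherin of the forming somite, by -0.25 (SE 0.152). Of 17 genes of somite boundaries, polarity and differentiation, 16 were tested, 7 were higher and 9 lower, and the median was -0.02. Pax3 alone of the 16 had an unadjusted p under 0.05, beside 4.4% of all tested probes. Pax3, a paired box gene of the dorsal somite and neural tube, measured 1.76, 1.86, 1.92 and 1.97 in the wt/wt group and 1.66, 1.79, 1.52 and 1.65 in the hypo/wt group. Heterozygous father replicate 2 was the embryo of its group that overlapped the other. Its log2 difference was -0.22 (SE 0.084, limma, unadjusted p = 0.0316, adjusted p = 1.00). Nkx3-2 differed by -0.46 (SE 0.755) and Mesp1 by -0.49, the largest of the list. The smallest adjusted p over these 4 lists was 1.00 by limma.

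**Figure D5:**
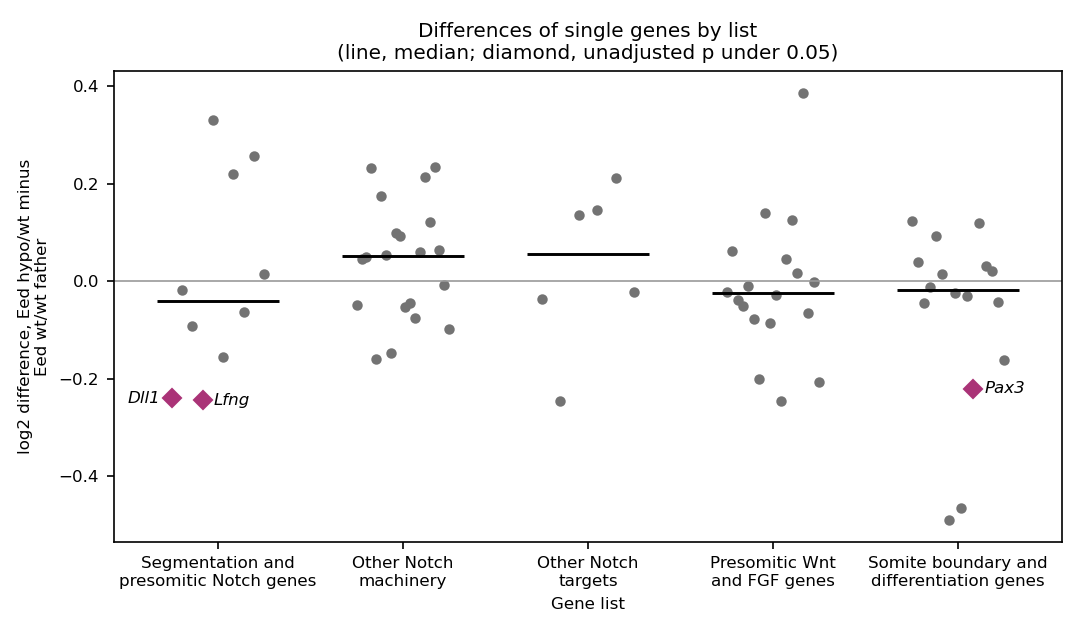
Log2 difference between the father groups, hypo/wt minus wt/wt, (y axis) for each tested gene of 5 lists (x axis), with a line at the median of each list and diamonds for genes at an unadjusted p under 0.05. The medians lie between -0.04 and 0.06, and the diamonds are Lfng, Dll1 and Pax3, all below 0.

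Females and males did not separate in any of the 10 genes. By limma, 0 of the 13 probes were called, beside 0.0332% of all tested probes; 0 had an unadjusted p under 0.05, beside 3.28%; and 0 had sexes without overlap, beside 2.57%. The brightest probes of 8 of the 10 genes were higher in males, with a median log2 difference of 0.07 (male minus female), beside 0.02 over all tested probes, of which 54.5% were higher. With the medians of the arrays aligned the direction turned: 8 of the 10 were lower in males, all but Ripply2 and Meox1, with a median of -0.08. That setting adds a constant per array and so moves the sex difference of all probes alike. The share of all tested probes lower in males was not computed there, so the turn is not particular to these genes. The differences closest to the threshold were 0.36 (SE 0.251, unadjusted p = 0.194) for Ripply2 and 0.34 (SE 0.244, unadjusted p = 0.213) for Meox1, both within the spread between embryos. Mesp2 was -0.51 (SE 0.789) and Notch1 -0.36 (SE 0.703). The father by sex interaction had 0 of the 10 genes at an unadjusted p under 0.05, beside 2.23% of all tested probes, with the smallest p at 0.386 for Msgn1 (limma, adjusted p = 0.996).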

How the data were processed

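Expression was measured in single wild-type E8.5 embryos, 4 per father genotype, by single-colour (Cy3) Agilent 8x60K arrays. The deposited intensity values were made by the authors with Agilent Feature Extraction 11.0.1.1, per the labels, with the background subtracted and spatial trends removed but without any scaling from array to array. A series-wide table repeats these intensities, at 0.995 to 1.00 times the scanner values, and served as an alternative. The array's probe intervals are on mouse build mm9 and were not used, and promoter windows are on GRCm38.p6.

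The log2 intensity was taken relative to the 75th percentile of each array's non-control spots, outlier spots were dropped, and replicate spots were then averaged per probe. Probes above the lowest 20% by mean and well above background on at least 4 of 8 arrays were tested (33093). Father genotype, sex and their interaction were fitted with limma 3.58.1 in R 4.3.3 with Benjamini-Hochberg adjustment over all tested probes, and calls required both an adjusted p under 0.01 and a 2-fold change. The percentile used in the authors' own shift is not given in the sources used here. The precision is set by 8 arrays.

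Probes were named through RefSeq accessions, of which 27235 of 28685 matched a symbol. The text names every probe of the 10 genes, and from the other lists each gene at an unadjusted p under 0.05, the 2 with the largest difference and the 3 most like the mean profile; Mesp1's values, Rbpj and single markers were chosen after their values were seen. A gene is represented by its brightest tested probe. The 10 genes and the lists were chosen with earlier results of these data known. Replicate numbers did not pair the embryos. Alternatives covered normalization, filter, blocks, weights, moderation and each embryo left out, and the fit was tested on simulated data. In all, 0 columns of sample values were left unused.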

Additional observations from a re-analysis of the deposited data

Results flagged for a closer look

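Dixon's test divides the distance from the highest or lowest of 4 embryos to the next by the whole range of the 4. Its 95% limit was passed in 2 of the 50 groups examined, where chance gives about 1 in 20, or 2.5. None of the 13 probes of the segmentation genes was among them in either father group. The mean of the decidua and trophoblast markers was apart in heterozygous father replicate 3 (share 0.920), where Prl8a2 measured -2.61 and Prl3d1 -2.99. The mean of the neural markers was apart in heterozygous father replicate 4 (share 0.943), where Olig2 measured -5.88 against -2.79 to -3.53 in the other embryos of its group. Olig2 was well above background on 7 arrays, and the local background of that embryo's array was 133 intensity units. The part of this single gene in the mean was not tested.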

How the results depend on the processing

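Calls at the adjusted threshold between father groups stayed at 0 of all tested probes under every alternative with all 8 embryos, became 1 without both arrays with the most probes above background (wild-type father replicate 1 and heterozygous father replicate 3), and 0 to 1 with single embryos left out. Of the 10 genes, the 2 at an unadjusted p under 0.05 became 1 under normexp with quantile normalization (changed together, and called normexp here), 0 with medians aligned, 0 without a filter, 0 with the replicate block, 0 with a random block for the code of the embryo (3 embryos of the wt/wt group share the start of their code; estimated correlation 0.541) and 0 to 2 with an embryo left out. The replicate numbers did not pair the embryos (correlations of deviations -0.59 to -0.05). Lfng and Dll1 kept their sign in all alternatives. Signs of small differences turned: Tbx6 (-0.011 under normexp, -0.091 with medians aligned, -0.0087 with array weights, -0.050 without both arrays; -0.045 to 0.10 with an embryo left out), Dll3 (0.073 with probes averaged, 0.022 with the code block; -0.079 to 0.073), Notch1 (0.072 without both arrays; -0.43 to 0.35), Msgn1 (-0.042 to 0.37) and Mesp2 (-0.78 to 0.35).

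Aligning medians adds a constant per array; it gave 11 called pairs in place of 0, 9 genes with a range over 2-fold in place of 5 (3 without both arrays, 3 to 5 with an embryo left out), and medians of -0.054 for the Notch machinery (also -0.047 with probes averaged), -0.076 for sex and -0.75 for the interaction, with 4 probes called there. By sex it gave -0.12 for Hes7, -0.082 for Lfng, -0.031 for Dll1, -0.014 for Dll3, -0.069 for Tbx6 and -0.091 for Msgn1. Other sign changes by sex were Notch1 (0.012 averaged; -0.80 to 0.064 with an embryo left out), Tbx6 (-0.012 averaged; -0.012 to 0.16), Lfng (-0.019 with array weights, -0.025 without both arrays), Msgn1 (-0.083 with weights, -0.18 without both; -0.25 to 0.24), Hes7 (-0.046 without both; -0.027 to 0.086) and Mesp2 (-1.22 to 0.14). The 11 probes called by sex became 5 without a filter, 0 with the filter on 8 arrays, 7 with probes averaged, 7 without both arrays and 4 to 9 with an embryo left out. Counts at an unadjusted p under 0.05 became, for the machinery, 1 under normexp and 1 without both arrays; for the somite list, 0 with medians aligned, 2 under quantile normalization, 2 without both arrays and 0 to 1 with an embryo left out; and 0 to 1 for the Wnt and FGF list, for the 10 genes by sex and for their interaction, whose median ran from -0.15 to 0.18. Leaving out both arrays was added after seeing the data, and the cause of these changes was not tested.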

Other observations

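Tbx4, a T-box gene of the allantois and later of the hindlimb, listed here among markers of later stages, measured 0.06 and 0.10 in the 2 female embryos of Eed wt/wt fathers and 1.95 to 2.51 in the other 6 embryos, females and males. It was singled out after its values were seen. Its log2 difference between father groups was 0.93 (limma, unadjusted p = 0.158, adjusted p = 1.00). Of the 60 tested genes in the 4 related lists, 4 had an unadjusted p under 0.05 by sex, beside 3.28% of all tested probes: Notch4 (log2 difference 0.31, male minus female), Heyl (0.81) and Tbx18 (0.42) were higher in males and Fgf4 (-0.47) in females, each with an adjusted p of 1.00 by limma. Heyl was well above background on 6 arrays.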
